A study of Rattus norvegicus with 12 samples.

Results

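The 6 genes described here are linked to heritable pulmonary hypertension in patients and lie outside the BMP receptor genes most often affected: Aqp1, Tbx4, Eif2ak4, Atp13a3, Abcc8 and Ggcx. They were chosen by name, as rows of the count table whose symbol is one of the 6, out of 32883 genes. Of these 6 genes, 5 passed the filter on low counts and were among the 15257 genes tested, and Abcc8 did not pass it.

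Whole lungs of rats were profiled by RNA sequencing in 12 libraries, 4 in each of 3 groups, all with genotype WT and a time of 25 days. MCT-Fer-1 rats had monocrotaline and were given ferrostatin-1 for 10 days. MCT-vehicle rats had monocrotaline and were given vehicle for 10 days. Control rats have no agent and no dosing stated, so against Control the monocrotaline and the dosing cannot be told apart. Monocrotaline is a plant toxin that injures lung vessels and is used to model pulmonary hypertension, and ferrostatin-1 is an inhibitor of ferroptosis, an iron-dependent death of cells by lipid peroxidation. The sources used here give no strain, sex or age, and do not say that each library is 1 animal, so the p-values rest on the spread between libraries, which may be technical.

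Pulmonary hypertension narrows and remodels the small arteries of the lung, and inherited forms follow from variants in genes of quite different function. Aqp1 encodes a water channel of endothelium and red cells, Tbx4 a transcription factor of the lung mesenchyme, Eif2ak4 the kinase GCN2 that senses amino acid shortage, Atp13a3 an ATPase tied to polyamine transport, Abcc8 a subunit of an ATP-sensitive potassium channel, and Ggcx the vitamin K-dependent gamma-glutamyl carboxylase. Whether the rat genes change in transcript level when the disease is induced by a toxin is the question the comparisons below address.

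Library totals were 11601929 to 70627239 counts in MCT-Fer-1, 13654695 to 24016262 in MCT-vehicle and 16640022 to 18229992 in Control. Levels are given as CPM, read counts relative to the TMM-scaled size of each library, a scale that allows a gene to be compared between libraries but not with another gene of a different length. The lung label fitted its markers: the summed level of 7 alveolar and airway epithelial genes was 29496 to 43927 CPM in MCT-Fer-1, 29537 to 39277 in MCT-vehicle and 40815 to 43169 in Control, and none of the 7 was at 0 in any library. Against Control, all 6 genes of dividing cells were higher in both monocrotaline groups, as were 5 of 8 macrophage genes in MCT-Fer-1 and 6 of 8 in MCT-vehicle, and 3 of 10 fibroblast and pericyte genes in MCT-Fer-1 and 5 of 10 in MCT-vehicle. Of all genes tested, 6.67% were called higher in MCT-Fer-1 and 10.3% in MCT-vehicle. The macrophage genes include Marco, at 0 CPM in every Control library and at most 1.22 CPM elsewhere. Marco passed the low-count filter through the monocrotaline groups alone, so a call of it is no support. None of 7 smooth muscle, 7 epithelial or 7 heart-muscle genes passed the test in any comparison, and of 4 tested neuroendocrine and neural genes 1 was higher in MCT-vehicle than in Control. Summed heart-muscle transcripts stood apart in MCT-vehicle 2 and Control 4, and the members are given with and without these libraries where they matter.

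Under monocrotaline and vehicle, Aqp1 fell and no other member passed the test. In MCT-vehicle against Control, edgeR's quasi-likelihood test with Benjamini-Hochberg adjustment called 1 of the 5 tested members, lower in MCT-vehicle, where 18.6% of all genes tested were called, 8.28% lower and 10.3% higher. Eif2ak4 was below all Control values in 3 of 4 MCT-vehicle libraries but missed the adjusted threshold. At an unadjusted p below 0.05 there were 2 of the 5 members and 32.1% of all genes tested. The median log2 fold change was -0.02 over the 5 members and 0.02 over all genes tested. The groups did not overlap for 1 of the 5 members, Aqp1, against 21.5% of all genes tested.

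With ferrostatin-1, no member differed from vehicle. In MCT-Fer-1 against MCT-vehicle, edgeR called 0 of the 5 members and 0.0% of all genes tested, and 0 of the 5 members had an unadjusted p below 0.05, where 12% of all genes did. DESeq2 and limma voom also called 0 members, where DESeq2 called 1.78% of all genes and limma voom 0. The groups overlapped for all 5 members, whereas 6.10% of all genes tested did not overlap. A p that misses the threshold does not show that the levels were the same, and the interval of each difference is given with its gene.

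Against Control, the MCT-Fer-1 lungs had lower Eif2ak4 and Aqp1 and higher Atp13a3 means, none of which passed the adjusted threshold of edgeR. It called 0 of the 5 members in MCT-Fer-1 against Control, where 10.8% of all genes tested were called. At an unadjusted p below 0.05 there were 3 of the 5 members and 25.2% of all genes tested. DESeq2 called 2 members, Aqp1 and Atp13a3, and 15.2% of all genes, and limma voom called 1 member, Atp13a3, and 15.5% of all genes. The groups did not overlap for 2 of the 5 members, Eif2ak4 and Atp13a3, against 19.1% of all genes tested. This comparison and that of MCT-vehicle with Control share the 4 Control libraries.

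**Figure D1:**
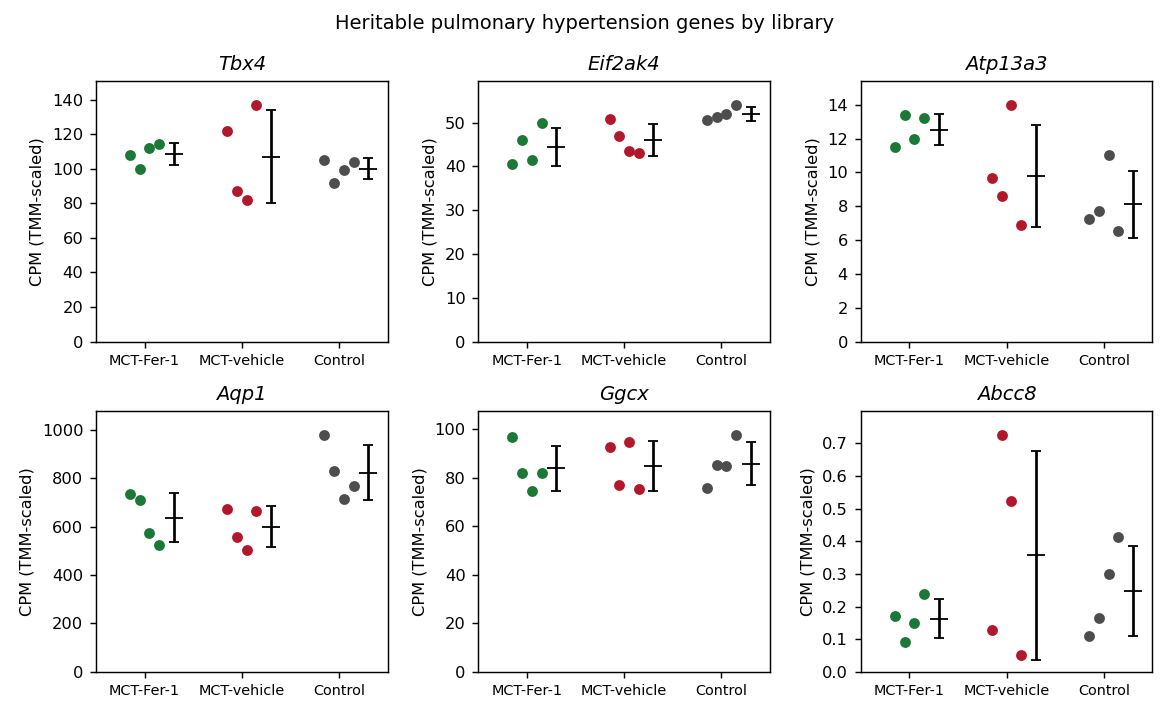
Level of each of the 6 genes in every library, in CPM on TMM-scaled library sizes, with MCT-Fer-1, MCT-vehicle and Control from left to right; points are libraries, and the bar beside them is the mean with its SD (n = 4). Aqp1 lies at 503 to 674 CPM in MCT-vehicle and 716 to 979.7 CPM in Control, and Abcc8 stays below 1 CPM in every library.

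Aqp1 (ENSRNOG00000011648) encodes aquaporin-1, the water channel of endothelial cells and red cells. Its start region is shown because it is the 1 member that passed the test, and that of Ggcx because its level moved least. Both are the 100 bases before the RefSeq start on the plus strand of build GRCr8, from 5′ to 3′, Aqp1 at chr4:85812684-85812783 and Ggcx at chr4:106027839-106027938. Capitals mark the motifs found.
Aqp1: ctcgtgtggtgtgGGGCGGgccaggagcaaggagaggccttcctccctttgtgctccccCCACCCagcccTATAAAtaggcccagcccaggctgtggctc
Ggcx: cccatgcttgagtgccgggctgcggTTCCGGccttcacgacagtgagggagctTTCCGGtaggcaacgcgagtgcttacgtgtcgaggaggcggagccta
Motifs were searched as exact letters on both strands. The TATA box was sought as TATAAA, the GC box of SP1-like factors as GGGCGG, and the motif of KLF factors (the CACC-type box) as CCACCC. The core of ETS factor sites was sought as CCGGAA, which reads as its reverse complement in capitals where it lies on the minus strand, and the core of a cyclic AMP response element as TGACGT. No printed matches overlap. The Aqp1 region holds a GC box 87 bases, a CACC-type box 41 bases and TATAAA 30 bases before the start. The Ggcx region holds no TATAAA but an ETS core at 75 and another at 47 bases before the start. Among 33469 rat promoter windows of the same length, 5.78% hold TATAAA, 21.6% the GC box, 12.8% the CACC-type box, 7.65% the ETS core and 4.19% TGACGT. Of the other members, Tbx4 (chr10:71228456-71228555, a GC box 92 bases before the start) and Eif2ak4 (chr3:125810107-125810206, none of the motifs) also had an entry. A match is a description of letters and not evidence of binding.

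Aqp1 had 735, 710.1, 576 and 526 CPM in the MCT-Fer-1 libraries, against 674, 558, 503 and 666 CPM in MCT-vehicle and 979.7, 829, 716 and 769 CPM in Control. All 4 MCT-vehicle libraries lay below all 4 Control libraries, and in MCT-Fer-1 the libraries at 710.1, 576 and 526 CPM did so. Aqp1 averaged 636 ± 102 CPM in MCT-Fer-1, 600.4 ± 83.4 CPM in MCT-vehicle and 824 ± 114 CPM in Control (SD, n = 4 each). In MCT-vehicle against Control it fell by 27.1%, a log2 fold change of -0.46 ± 0.14 (SE) with a 95% interval of -0.75 to -0.16 and an edgeR adjusted p of 0.0336. This call could be lost by leaving out 1 library, and it was kept in 14 of the 20 processing alternatives. Its adjusted p was 0.00667 with DESeq2 and 0.0377 with limma voom. The call was lost in the other 6. The edgeR adjusted p was 0.0786 without MCT-vehicle 2, 0.0828 without MCT-vehicle 3, 0.0881 without Control 1, 0.0714 without Control 2, 0.0525 without Control 4, and 0.1 without MCT-vehicle 2 and Control 4 together. The log2 fold change stayed between -0.49 and -0.36 in these fits, and between -0.52 and -0.36 over all fits that left out 1 library.

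In MCT-Fer-1 against MCT-vehicle, the log2 fold change of Aqp1 was 0.08 ± 0.14 (SE, interval -0.21 to 0.38, edgeR adjusted p 0.838). In MCT-Fer-1 against Control it was -0.37 ± 0.14 (interval -0.67 to -0.08). The edgeR adjusted p there was 0.104, against 0.0474 with DESeq2. The interval of MCT-Fer-1 against MCT-vehicle thus holds 0 and reaches 0.38, beside -0.46 for MCT-vehicle against Control.

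Summed transcripts of endothelial and red cells, which carry Aqp1, were also lower in MCT-vehicle than in Control. Summed over 11 endothelial genes, the level was 3284 to 4672 CPM in MCT-Fer-1, 2979 to 3890.1 CPM in MCT-vehicle and 4330.4 to 4741 CPM in Control. Summed over 8 capillary genes it was 1242 to 1602 CPM in MCT-Fer-1, 1094 to 1448 CPM in MCT-vehicle and 1772 to 1905 CPM in Control. Summed over 7 red-cell genes it was 764 to 1513 CPM in MCT-Fer-1, 669 to 1007 CPM in MCT-vehicle and 1472 to 2255 CPM in Control. For all 3 lists the MCT-vehicle libraries lay wholly below the Control libraries, and none of these genes was at 0 in any library. The same held for the epithelial sum given above (29537 to 39277 CPM in MCT-vehicle and 40815 to 43169 CPM in Control). Abundant genes weigh most in these sums, and in Control Hbb averaged 1621 CPM beside a mean red-cell sum of 1738 CPM. Not every gene fell with its sum. In MCT-vehicle and Control, Tie1 averaged 269 and 272 CPM, Egfl7 340.3 and 280.1, Ca4 112 and 115, and Fibin 98.1 and 74.1. The edgeR calls of each list are given below. Whether the fall of Aqp1 follows from endothelial and red cells was not tested, and in whole lung fewer cells of a type and less RNA per cell cannot be told apart.

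By edgeR, in MCT-vehicle against Control, 6 of 7 red-cell genes were lower, 4 of 8 capillary genes were lower and 1 higher, and 3 of 11 endothelial genes were lower and 1 higher. Of all genes tested, 8.28% were called lower and 10.3% higher in this comparison. Tek, the angiopoietin receptor of endothelium, averaged 143 ± 19.1 CPM in MCT-vehicle and 554 ± 25.4 CPM in Control (SD, n = 4 each). Gpihbp1, which anchors lipoprotein lipase on capillaries, had 9.7, 2.36, 3.28 and 3.31 CPM in MCT-vehicle and 83.8, 82.2, 76.1 and 45.4 CPM in Control. Hbb, a beta-globin of red cells, averaged 799 ± 131 CPM in MCT-vehicle and 1621 ± 325 CPM in Control. Emcn, a sialomucin of veins and capillaries, moved the other way and averaged 187 ± 42.5 CPM in MCT-vehicle and 108 ± 3.06 CPM in Control. The number of endothelial genes called lower was 6 without MCT-vehicle 1 and 6 with DESeq2. Without MCT-vehicle 2 and Control 4 together, 3 red-cell and 2 capillary genes were called lower. The capillary gene called higher, Apln, an apelin peptide precursor, kept its call in 5 of the 12 fits that left out 1 library. The edgeR calls of Tek, Gpihbp1, Hbb and Emcn in this comparison held in each of the 12 fits that left out 1 library. Against MCT-vehicle, MCT-Fer-1 had 0 edgeR calls in all 3 lists.

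**Figure D2:**
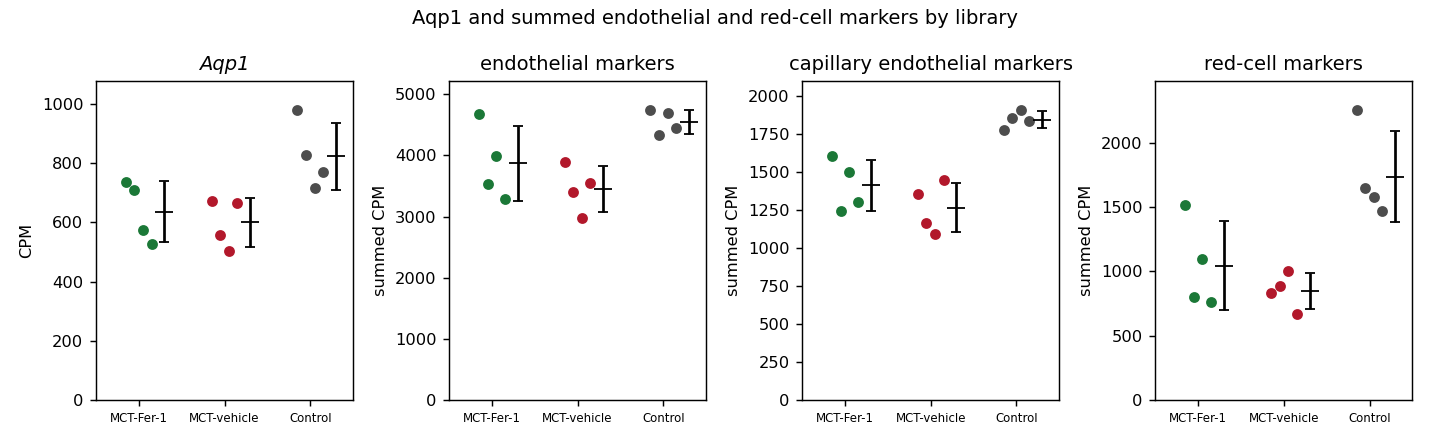
Aqp1 in CPM and the summed CPM of 11 endothelial, 8 capillary endothelial and 7 red-cell genes, by library; points are libraries, and the bar beside them is the mean with its SD (n = 4), with MCT-Fer-1, MCT-vehicle and Control from left to right. In each panel every MCT-vehicle point lies below every Control point. The highest MCT-Fer-1 library reaches the Control range for Aqp1 (735 CPM), endothelial genes (4672 CPM) and red-cell genes (1513 CPM), but not for capillary genes (1602 CPM).

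Of 5 tested relatives of Aqp1, Aqp5 and 3 others were not called by edgeR in any comparison. Aqp12a, an aquaporin better known from pancreas, had 5, 8, 18 and 37 counts in MCT-Fer-1, 12, 12, 10 and 17 counts in MCT-vehicle and 1, 0, 0 and 0 counts in Control. It stayed below 1 CPM in all 12 libraries and passed the low-count filter through the monocrotaline groups alone, so its edgeR call against Control is not used, and in fits of only the 2 groups compared it was filtered out. Aqp5, the water channel of alveolar type I cells, averaged 591 ± 76.1 CPM in MCT-Fer-1, 543 ± 70.9 CPM in MCT-vehicle and 532 ± 73.9 CPM in Control, with no call.

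Tbx4 (ENSRNOG00000003544), a T-box transcription factor of the lung mesenchyme that acts in lung bud growth, had 108, 100, 112 and 114 CPM in MCT-Fer-1, 122, 86.9, 81.7 and 137 CPM in MCT-vehicle and 105, 92, 99.3 and 104 CPM in Control. The means were close, at 109 ± 6.37 CPM in MCT-Fer-1, 107 ± 26.8 CPM in MCT-vehicle and 100.2 ± 5.98 CPM in Control (SD, n = 4 each), and all groups overlapped. The MCT-vehicle libraries were the most spread, with 2 above and 2 below all Control libraries and a coefficient of variation of 25.1%, against 5.86% in MCT-Fer-1 and 5.97% in Control. The log2 fold change was 0.09 ± 0.14 (SE, interval -0.21 to 0.40) in MCT-vehicle against Control, 0.02 ± 0.14 (interval -0.28 to 0.32) in MCT-Fer-1 against MCT-vehicle and 0.12 ± 0.14 (interval -0.18 to 0.42) in MCT-Fer-1 against Control. The edgeR adjusted p-values were 0.679, 0.962 and 0.66 in the same order of comparisons. The sign in the first 2 of these comparisons turned when 1 MCT-vehicle library was left out, as given under the processing alternatives.

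Genes that work beside TBX4 in the mesenchyme moved in both directions. Of 14 tested, 2 were higher and 3 lower in MCT-vehicle than in Control by edgeR, where 10.3% of all genes were called higher and 8.28% lower. Osr1, a zinc finger factor of embryonic mesenchyme, averaged 11.1 ± 2.06 CPM in MCT-vehicle and 4.32 ± 0.91 CPM in Control (log2 fold change 1.36 ± 0.19 SE, edgeR adjusted p 0.000436). Foxf1, a forkhead factor of lung mesenchyme and capillary endothelium, averaged 121 ± 17.8 CPM in MCT-vehicle and 199.5 ± 22.4 CPM in Control (-0.72 ± 0.16, edgeR adjusted p 0.00723). Ptch1, the hedgehog receptor, averaged 55.7 ± 11.9 CPM in MCT-vehicle and 97.1 ± 23.7 CPM in Control (-0.80 ± 0.18, edgeR adjusted p 0.00794), although the groups overlapped and the edgeR adjusted p was 0.0648 without MCT-vehicle 2 and Control 4. The calls of Osr1, Foxf1 and Ptch1 held without any 1 library. Gli1 (higher) kept its call in 7 and Tbx3 (lower) in 6 of the 12 fits that left out 1 library.

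Tbx5, the partner of Tbx4 in lung development, averaged 26.2 ± 4.54 CPM in MCT-Fer-1, 23 ± 5.28 CPM in MCT-vehicle and 22.5 ± 1.38 CPM in Control, and Fgf10, a growth factor target of the pair, averaged 10.2 ± 0.483, 11.8 ± 2.92 and 8.55 ± 2.80 CPM in the same order of groups. Neither was called in any comparison. In MCT-Fer-1 against Control, edgeR called 1 of the 14 higher and 2 lower, where 6.67% of all genes tested were called higher and 4.12% lower. The counts for the 14 were 0 to 1 higher and 0 to 1 lower when 1 library was left out.

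Eif2ak4 (ENSRNOG00000006027) encodes GCN2, a kinase that binds uncharged transfer RNA, phosphorylates eIF2alpha and so slows translation; loss of both human copies causes pulmonary veno-occlusive disease. It had 40.5, 46, 41.5 and 49.9 CPM in MCT-Fer-1, 50.8, 46.9, 43.5 and 43 CPM in MCT-vehicle and 50.5, 51.4, 52 and 54.1 CPM in Control. All 4 MCT-Fer-1 libraries lay below all 4 Control libraries, and 3 of 4 MCT-vehicle libraries did so. The means were 44.5 ± 4.32 CPM in MCT-Fer-1, 46 ± 3.59 CPM in MCT-vehicle and 52 ± 1.53 CPM in Control (SD, n = 4 each).

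The log2 fold change of Eif2ak4 in MCT-vehicle against Control was -0.18 ± 0.08 (SE, interval -0.35 to 0, edgeR adjusted p 0.152). In MCT-Fer-1 against Control it was -0.22 ± 0.08 (interval -0.40 to -0.05, edgeR adjusted p 0.0983), a mean lower by a fold of 0.857. In MCT-Fer-1 against MCT-vehicle it was -0.05 ± 0.08 (interval -0.22 to 0.12, edgeR adjusted p 0.843). The difference of MCT-Fer-1 from Control passed the threshold without MCT-Fer-1 4, the highest of its group (edgeR adjusted p 0.0434), and in no other fit tried.

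Some genes around GCN2 were higher in both monocrotaline groups than in Control. Of 18 tested, 6 were higher and 0 lower in MCT-vehicle than in Control by edgeR, where 10.3% of all genes were called higher. In MCT-Fer-1 against Control, 4 were higher and 0 lower, where 6.67% of all genes were called higher. Most of the list was not called, and the list was chosen with earlier results of these data known. Its counts of calls are thus no independent support. Among the genes without a call, Ddit3 averaged 21 ± 3.13 CPM in MCT-vehicle and 19.7 ± 1.24 CPM in Control, and Trib3 12.5 ± 1.27 and 14.9 ± 3.01 CPM. Slc7a5, an importer of large neutral amino acids, averaged 34.7 ± 4.40 CPM in MCT-Fer-1, 41.4 ± 9.12 CPM in MCT-vehicle and 21.1 ± 0.906 CPM in Control. Its log2 fold change against Control was 0.72 ± 0.14 (SE, edgeR adjusted p 0.00507) in MCT-Fer-1 and 0.97 ± 0.14 (edgeR adjusted p 0.000506) in MCT-vehicle. Sesn2, a stress-induced brake on mTORC1, averaged 72.3 ± 8.32 CPM in MCT-Fer-1, 69.9 ± 11.3 CPM in MCT-vehicle and 49.3 ± 4.25 CPM in Control. Both calls of Slc7a5 and of Sesn2 against Control held without any 1 library.

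Asns, which makes asparagine, averaged 44.7 ± 7.29 CPM in MCT-vehicle and 31.9 ± 1.36 CPM in Control (0.49 ± 0.11 SE, edgeR adjusted p 0.00861). Eif2ak2, the eIF2alpha kinase that responds to double-stranded RNA, averaged 80.3 ± 11.5 CPM in MCT-vehicle and 59.4 ± 3.03 CPM in Control (0.44 ± 0.09 SE, edgeR adjusted p 0.00623). Both calls held without any 1 library in this comparison, whereas in MCT-Fer-1 against Control Asns kept its call in 6 and Eif2ak2 in 5 of the 12 such fits. Of the remaining higher genes in MCT-vehicle, Eif4ebp1, a repressor of cap-dependent translation, kept its call in 10 and Eif2s1, the eIF2alpha subunit itself, in 4 of the 12 fits. Atf4, the transcription factor made when eIF2alpha is phosphorylated and mostly set by translation, averaged 259 ± 7.11 CPM in MCT-Fer-1, 305 ± 44.4 CPM in MCT-vehicle and 314 ± 19.7 CPM in Control with no edgeR call, and Gcn1, the activator of GCN2, averaged 119.7 ± 10.3, 127 ± 4.60 and 132 ± 6.35 CPM in the same order of groups with no call.

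Atp13a3 (ENSRNOG00000001724), a P-type ATPase of endosomes implicated in polyamine uptake, had 11.5, 13.4, 12 and 13.2 CPM in MCT-Fer-1, 9.66, 8.62, 14 and 6.88 CPM in MCT-vehicle and 7.26, 7.7, 11 and 6.51 CPM in Control. All 4 MCT-Fer-1 libraries lay above all 4 Control libraries, and MCT-vehicle, at 6.88 to 14 CPM, overlapped both. The means were 12.5 ± 0.899 CPM in MCT-Fer-1, 9.79 ± 3.04 CPM in MCT-vehicle and 8.12 ± 1.99 CPM in Control (SD, n = 4 each), with coefficients of variation of 7.18%, 31.1% and 24.6% in the same order of groups. The MCT-vehicle library highest in Atp13a3, MCT-vehicle 3 with 14 CPM, was the lowest of its group in Tbx4 with 81.7 CPM, and the lowest, MCT-vehicle 4 with 6.88 CPM, was the highest in Tbx4 with 137 CPM.

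In MCT-Fer-1 against Control, Atp13a3 was higher by a fold of 1.54, a log2 fold change of 0.63 ± 0.21 (SE, interval 0.17 to 1.08), with an edgeR adjusted p of 0.0774. This value lay near the threshold and crossed it in several fits. The adjusted p was 0.0335 with DESeq2, 0.02 with limma voom and, with edgeR, 0.0316 in a fit of only these groups, 0.035 without MCT-vehicle 3 and 0.0366 without Control 3, whereas it was 0.193 with edgeR without Control 4. In MCT-vehicle against Control the log2 fold change was 0.26 ± 0.21 (interval -0.19 to 0.72, edgeR adjusted p 0.42), and in MCT-Fer-1 against MCT-vehicle it was 0.36 ± 0.21 (interval -0.09 to 0.81, edgeR adjusted p 0.508). In MCT-vehicle against Control it came to 0.05 without MCT-vehicle 3 and 0.45 without Control 3, and in MCT-Fer-1 against MCT-vehicle to 0.58 without MCT-vehicle 3 and 0.23 without MCT-vehicle 4.

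Of 17 tested genes of polyamine handling, edgeR called 2 higher and 1 lower in MCT-vehicle against Control. It called 0 in MCT-Fer-1 against Control, where 10.8% of all genes tested were called, and 0 in MCT-Fer-1 against MCT-vehicle. These 3 of 17 calls in MCT-vehicle lie near the share of 18.6% among all genes tested and so are no result about the list. DESeq2 called 4 higher and 1 lower in MCT-vehicle against Control, where it called 23.2% of all genes. Odc1, ornithine decarboxylase and the first step of polyamine synthesis, averaged 257 ± 54.8 CPM in MCT-vehicle and 169 ± 13 CPM in Control (0.60 ± 0.14 SE, edgeR adjusted p 0.00965). Its call held without any 1 library, but the edgeR adjusted p was 0.0693 without both MCT-vehicle 2 and Control 4. Paox, which breaks down acetylated polyamines, was higher (0.48 ± 0.12 SE, edgeR adjusted p 0.0164, call kept in 9 of 12 fits without 1 library) and Sms, spermine synthase, was lower (-0.42 ± 0.13 SE, edgeR adjusted p 0.037, call kept in 7 of 12).

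**Figure D3:**
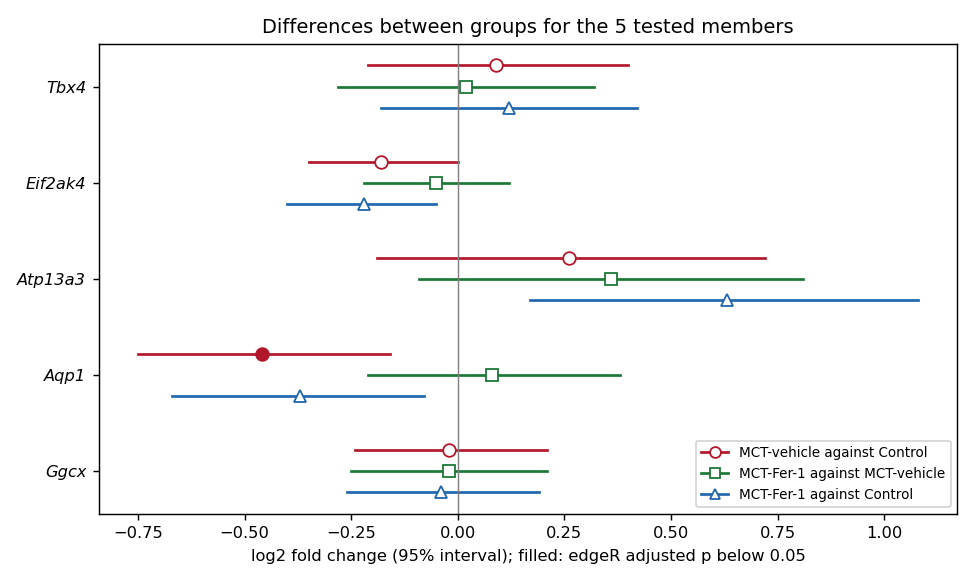
Log2 fold change with its 95% interval for the 5 tested genes in each comparison; circles stand for MCT-vehicle against Control, squares for MCT-Fer-1 against MCT-vehicle and triangles for MCT-Fer-1 against Control, and a filled symbol marks an edgeR adjusted p below 0.05. The 1 filled symbol is Aqp1 in MCT-vehicle against Control at -0.46, and the interval farthest to the right is that of Atp13a3 in MCT-Fer-1 against Control, from 0.17 to 1.08.

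Abcc8 (ENSRNOG00000021130) encodes SUR1, the sulfonylurea receptor that forms ATP-sensitive potassium channels with Kir6.2, best known from pancreatic beta cells and also present in rodent atria. It was barely detected, with 2, 2, 4 and 17 counts in MCT-Fer-1, 3, 16, 7 and 1 counts in MCT-vehicle and 2, 3, 5 and 7 counts in Control. Only 6 of the 12 libraries were above 3 counts, the floor used here, which corresponds to 0.042 to 0.259 CPM and covers counting error only. Scaled to depth, these were 0.172, 0.0922, 0.151 and 0.238 CPM in MCT-Fer-1, 0.128, 0.726, 0.522 and 0.0525 CPM in MCT-vehicle and 0.11, 0.166, 0.301 and 0.414 CPM in Control. The groups overlapped in all comparisons, and the highest values were those of MCT-vehicle 2 and 3.

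The mean difference of Abcc8 was 0.109 CPM in MCT-vehicle against Control (two-sided exact permutation p 0.543), -0.194 CPM in MCT-Fer-1 against MCT-vehicle (exact permutation p 0.4) and -0.0845 CPM in MCT-Fer-1 against Control (exact permutation p 0.286). The smallest p that 4 against 4 libraries can give is 0.0286. Without MCT-vehicle 2 the first difference was -0.0137 CPM, so its sign rests on that library. No difference was detectable at this depth.

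Heart-muscle transcripts were high in the same library. The summed level of 8 heart-muscle genes was 19.8, 44.2, 17.3 and 19.1 CPM in MCT-Fer-1, 21.7, 414, 80.7 and 45.9 CPM in MCT-vehicle and 35.6, 20, 17.3 and 262 CPM in Control, with up to 3 of the 8 genes at 0 in a library. Kcnj11 encodes Kir6.2 and is the next protein-coding gene to Abcc8 in the RefSeq annotation, without overlapping it. Kcnj11 had 0, 0, 0 and 3 counts in MCT-Fer-1, 0, 16, 1 and 2 counts in MCT-vehicle and 1, 1, 0 and 11 counts in Control. MCT-vehicle 2 was thus highest of all libraries in Abcc8, Kcnj11 and heart-muscle genes, and Control 4 was highest of its group in all of them. Summed neuroendocrine and neural transcripts (9 genes, up to 4 at 0 in a library) were also highest in MCT-vehicle 2, at 13.3 CPM, with 3.45 to 4.38 CPM in MCT-Fer-1, 3.41 to 10.4 CPM in the other MCT-vehicle libraries and 1.87 to 5.74 CPM in Control. The part of these transcripts in the Abcc8 counts was not tested.

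**Figure D4:**
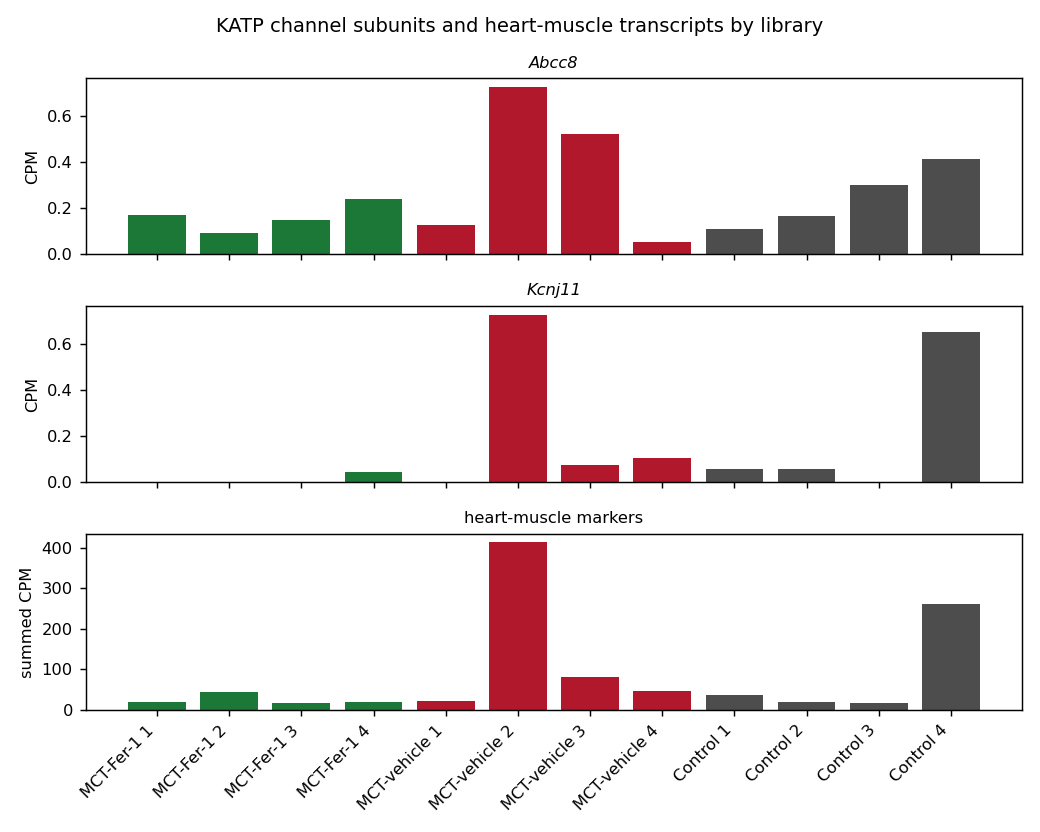
Abcc8 and Kcnj11 in CPM and the summed CPM of 8 heart-muscle genes, 1 bar a library, with MCT-Fer-1, MCT-vehicle and Control from left to right. MCT-vehicle 2 has the tallest bar in each panel (0.726 CPM for both channel genes and 414 CPM for heart-muscle genes), and Control 4 is the tallest of its group.

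The vascular counterparts of these subunits were well detected and not called in any comparison by edgeR. Abcc9, which encodes SUR2, averaged 52.6 ± 10.9 CPM in MCT-Fer-1, 52.1 ± 3.33 CPM in MCT-vehicle and 52.7 ± 9.79 CPM in Control (SD, n = 4 each). Kcnj8, which encodes Kir6.1, averaged 5.99 ± 1.34 CPM in MCT-Fer-1, 7.23 ± 2.45 CPM in MCT-vehicle and 7.29 ± 1.19 CPM in Control. Among 9 tested channel genes and ABCC transporters, edgeR called 1 higher in MCT-vehicle than in Control, where 18.6% of all genes were called. That gene was Abcc5, an exporter of cyclic nucleotides (0.34 ± 0.11 SE, edgeR adjusted p 0.0406). For MCT-Fer-1 against Control it called 1 lower, where 10.8% of all genes were called. That gene was Abcc6 (-0.98 ± 0.27 SE, edgeR adjusted p 0.0353). A count of 1 in 9 does not stand out from these shares and so is no result about the list. The call of Abcc5 was kept in 3 and that of Abcc6 in 6 of the 12 fits without 1 library, with edgeR adjusted p-values of up to 0.116 without Control 2 for Abcc5 and up to 0.0999 without MCT-Fer-1 2 for Abcc6.

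Ggcx (ENSRNOG00000012975) encodes the enzyme that carboxylates glutamate residues of vitamin K-dependent proteins. It had 97, 81.9, 74.6 and 82.1 CPM in MCT-Fer-1, 92.7, 76.9, 94.8 and 75.3 CPM in MCT-vehicle and 75.9, 85.3, 84.7 and 97.7 CPM in Control. All groups overlapped, with means of 83.9 ± 9.42 CPM in MCT-Fer-1, 84.9 ± 10.2 CPM in MCT-vehicle and 85.9 ± 8.94 CPM in Control (SD, n = 4 each). The log2 fold change was -0.02 ± 0.10 (SE, interval -0.24 to 0.21, edgeR adjusted p 0.932) in MCT-vehicle against Control, -0.02 ± 0.10 (interval -0.25 to 0.21, edgeR adjusted p 0.96) in MCT-Fer-1 against MCT-vehicle and -0.04 ± 0.10 (interval -0.26 to 0.19, edgeR adjusted p 0.877) in MCT-Fer-1 against Control. These intervals reach no farther than -0.26 and 0.21.

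Of 14 tested genes of the vitamin K cycle and its substrates, edgeR called 3 higher and 1 lower in MCT-vehicle against Control, where 18.6% of all genes were called, and the other 10 were not called. For MCT-Fer-1 against Control it called 2 higher, Calu and Prrg4, and 0 lower, where 10.8% of all genes were called. The number higher in MCT-Fer-1 was 0 without MCT-Fer-1 2 and 1 without MCT-Fer-1 1, MCT-Fer-1 3, Control 1, Control 2 or Control 4, and the number higher in MCT-vehicle was 1 without MCT-vehicle 2. Calu, calumenin, an endoplasmic reticulum protein known to inhibit the carboxylase, averaged 426 ± 25.6 CPM in MCT-Fer-1, 444 ± 48.4 CPM in MCT-vehicle and 331 ± 23 CPM in Control. Its log2 fold change against Control was 0.37 ± 0.09 (SE, edgeR adjusted p 0.0177) in MCT-Fer-1 and 0.43 ± 0.09 (edgeR adjusted p 0.00488) in MCT-vehicle. The MCT-vehicle call held without any 1 library, and the MCT-Fer-1 call was lost without MCT-Fer-1 2 (edgeR adjusted p 0.0558) or Control 4 (0.0602).

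Prrg4, a membrane protein with a carboxylated domain, averaged 5.22 ± 1.77 CPM in MCT-vehicle and 2.19 ± 0.932 CPM in Control (1.25 ± 0.33 SE, edgeR adjusted p 0.0185, and 0.0541 without MCT-vehicle 2). Mgp, matrix Gla protein, an inhibitor of calcification, averaged 1302 ± 193 CPM in MCT-vehicle and 866 ± 249 CPM in Control with overlapping groups (edgeR adjusted p 0.0462, call kept in 3 of the 12 fits without 1 library). Prrg3 had 0.259, 8.02, 1.25 and 1.09 CPM in MCT-Fer-1, 0.256, 0.454, 0.373 and 0.42 CPM in MCT-vehicle and 0.715, 4.1, 7.35 and 6.87 CPM in Control. It was called lower in MCT-vehicle than in Control by edgeR (adjusted p 0.023, call kept in 6 of the 12 fits) and not by limma voom (adjusted p 0.0999). It varied widely within MCT-Fer-1 and Control. Prrg3 passed the low-count filter through the Control and MCT-Fer-1 libraries alone, so its call, the lower one of this list, is no support. Vkorc1, the epoxide reductase that recycles vitamin K, averaged 33.2 ± 2.11 CPM in MCT-Fer-1, 37.8 ± 2.47 CPM in MCT-vehicle and 38.6 ± 3.63 CPM in Control with no edgeR call. Aifm2, the ferroptosis suppressor FSP1, which also reduces vitamin K, averaged 34.6 ± 5.60 CPM in MCT-Fer-1, 34.6 ± 2.93 CPM in MCT-vehicle and 30.6 ± 2.60 CPM in Control with no call.

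Among other genes of inherited pulmonary hypertension, Bmpr2, Smad4, Acvrl1 and Cav1 were lower in MCT-vehicle than in Control. This list too was chosen with earlier results of these data known, so its counts of calls are no independent support. Of 15 tested, edgeR called 4 lower and 0 higher in MCT-vehicle against Control, where 8.28% of all genes tested were called lower. In MCT-Fer-1 against Control it called 3 lower and 0 higher, where 4.12% of all genes tested were called lower. These 3 were Acvrl1, Smad4 and Sox17 (edgeR adjusted p 0.0205, 0.0486 and 0.0428). Their calls were kept in 9, 4 and 3 of the 12 fits that left out 1 library, in the same order of genes. Bmpr2, the type 2 BMP receptor, averaged 246 ± 34.9 CPM in MCT-Fer-1, 168 ± 31.4 CPM in MCT-vehicle and 282 ± 39.1 CPM in Control. Its log2 fold change was -0.74 ± 0.15 (SE, edgeR adjusted p 0.00442) in MCT-vehicle against Control, and 0.54 ± 0.15 (edgeR adjusted p 0.206) in MCT-Fer-1 against MCT-vehicle, where the groups did not overlap. Aqp1 showed 0.08 ± 0.14 in MCT-Fer-1 against MCT-vehicle, and whether the responses of Bmpr2 and Aqp1 differ was not tested.

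Smad4, the common SMAD, averaged 73.3 ± 3.32 CPM in MCT-Fer-1, 68.4 ± 4.14 CPM in MCT-vehicle and 84.5 ± 3.66 CPM in Control, and Acvrl1, the endothelial receptor ALK1, averaged 488 ± 70.1, 489 ± 78.5 and 692 ± 33.7 CPM in the same order of groups. In MCT-vehicle against Control the edgeR adjusted p was 0.00454 for Smad4 and 0.0133 for Acvrl1, and these calls and that of Bmpr2 held without any 1 library, although that of Acvrl1 was lost without MCT-vehicle 2 and Control 4 together (edgeR adjusted p 0.073). The call of Cav1, the main coat protein of caveolae, was kept in 6 of the 12 fits (edgeR adjusted p 0.0342 in all libraries and 0.0847 without MCT-vehicle 4). Without MCT-vehicle 2 and Control 4 together, 0 genes of the list were called lower for MCT-Fer-1 against Control and 2 for MCT-vehicle against Control, and the count for MCT-Fer-1 was 0 to 4 when 1 library was left out. Sox17 and Kdr of this list are also among the endothelial genes given beside Aqp1.

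**Figure D5:**
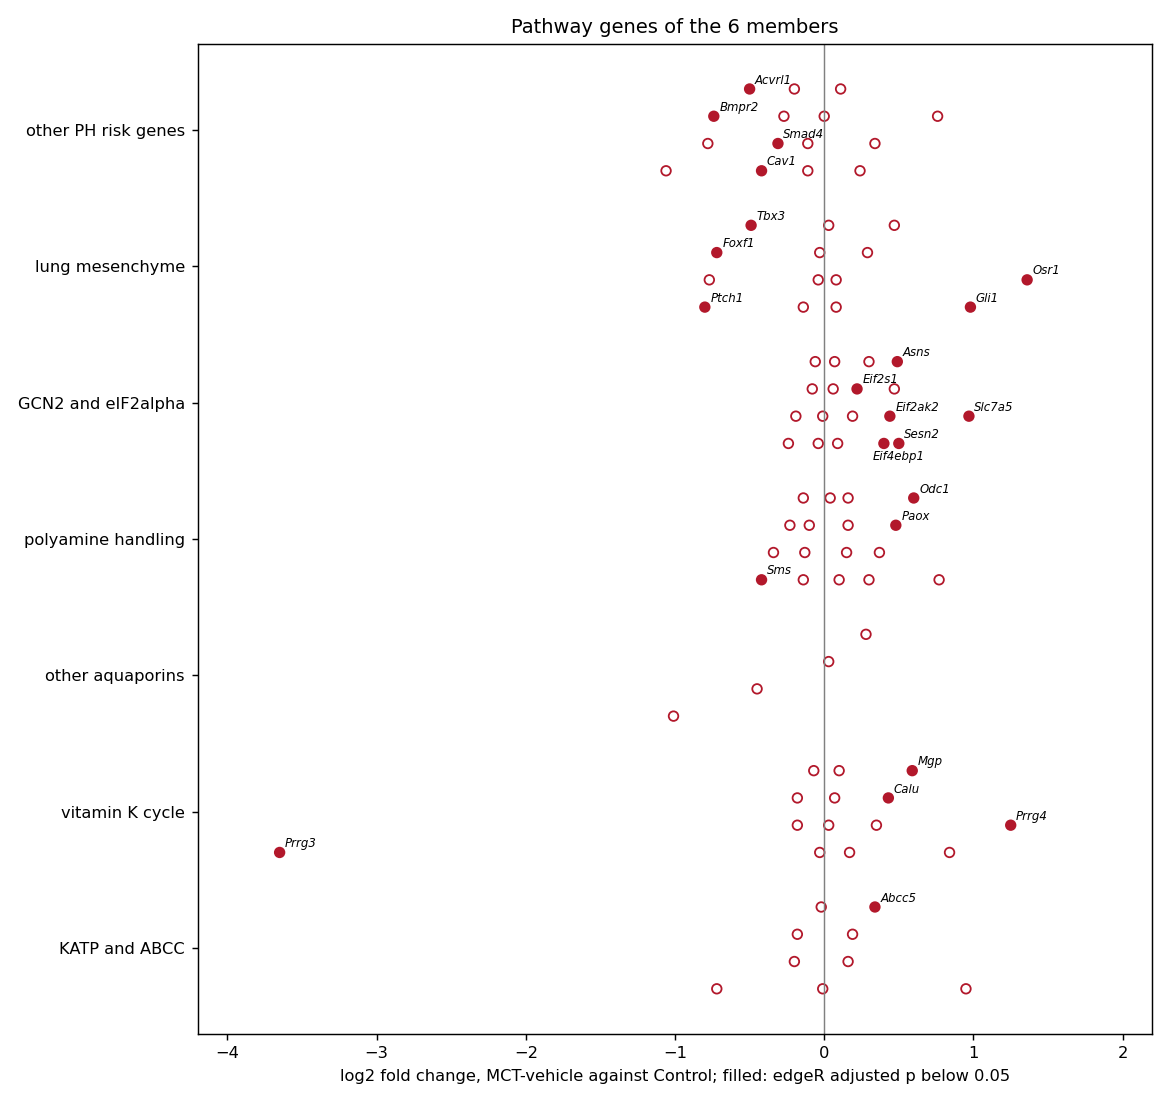
Log2 fold change in MCT-vehicle against Control of the tested genes in 7 lists around the members, 1 point a gene; filled points with a name passed an edgeR adjusted p below 0.05, and vertical offsets within a list only separate points. Aqp12a is not drawn because Control held 1 count in all. The GCN2 list has 6 filled points, all to the right of 0, the list of other pulmonary hypertension (PH) genes has 4, all to the left, and the rest lie on both sides or hold 1 or none.

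Likeness over the libraries was measured for the 5 tested members. Among 12193 genes with a mean of at least 1 on the log2 CPM scale, the gene most like Aqp1 over the 12 libraries was Morc3 (Pearson r 0.919, and 0.819 for deviations from the group means), followed by Ccdc51 (r 0.899) and Zfp869 (r 0.89). For Tbx4 they were Dctn2 (r 0.927), Adcy2 (r 0.916) and Pomgnt1 (r 0.902), and for Eif2ak4 Lemd3 (r 0.952), Dtnb (r 0.924) and Me3 (r 0.902). For Atp13a3 they were Pikfyve (r 0.932), Nudt21 (r 0.911) and Slc9a7 (r 0.887), and for Ggcx Kat5 (r 0.907), Unc13d (r 0.883) and Meaf6 (r 0.809). These genes were picked as the highest of many, and the points share library depth and group, so the r values are a description only. No other member was among the 3 most like genes of any member.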

How the data were processed

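The deposited table holds whole-number read counts per gene for 12 libraries, per the file headers, and names 32883 genes by Ensembl identifier and symbol. Its 3 columns of the authors' mean signal per group (mean counts, per the file headers) were left aside. How reads were aligned, to which build, and how they were counted is not given in the sources used here. RNA came from whole lung and libraries were made at a university genomics center, per the labels.

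The sample titles give each library's group and number. Genes were kept with edgeR's filterByExpr on the 3 groups, which removed 17626 genes and kept 15257, holding 99.9% of all counts. After TMM scaling, all 12 libraries were fitted together with 1 coefficient per group (edgeR robust quasi-likelihood, 9 residual degrees of freedom). Calls are genes whose p, adjusted by Benjamini-Hochberg over all genes tested, is below 0.05. The SE is the size of the log2 fold change divided by the square root of F, and intervals are 95%. Abcc8, which did not pass the filter, was compared in CPM by a two-sided exact permutation test. The edgeR, DESeq2 and limma voom fits were each checked on simulated counts. Versions were edgeR 4.0.16, DESeq2 1.42.0 and limma 3.58.1 under R 4.3.3.

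The members, the 7 pathway lists and the 10 marker lists were chosen with earlier results of these data known. All members are given. From each list up to 4 genes with the smallest p in a comparison are given, plus a few direct partners of the members, and markers of Aqp1-bearing cells. Apln was named to complete a count, Emcn because it moved against its list, and Tek, Gpihbp1 and Hbb after their values were seen. Eif4ebp1 and Eif2s1 complete the count of their list. For each tested member, the 3 genes with the highest Pearson r of log2 CPM (prior count 2) are named, leaving out names that are only identifiers. Of 198 list symbols 194 matched, 1 of them (Car4) as Ca4, and 167 were tested; the 4 without a match were not analysed here.

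All 66 library pairs differed by more than sampling noise (chi-square per degree of freedom of at least 10.7). Start sequences are RefSeq's, build GRCr8; 4 of the 6 members matched. Alternatives were a replicate block, DESeq2, limma voom with quality weights, other size factors, no filter, a fit to just the compared groups, leaving out each library, and leaving out MCT-vehicle 2 and Control 4 together. Applying them to the lists was added after seeing the data.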

Additional observations from a re-analysis of the deposited data

Results flagged for a closer look

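The summed level of 8 heart-muscle genes had 1 library far above the other 3 in each group. MCT-Fer-1 2 had 44.2 CPM against 17.3 to 19.8 CPM in the other MCT-Fer-1 libraries. MCT-vehicle 2 had 414 CPM against 21.7 to 80.7 CPM in the other MCT-vehicle libraries. Control 4 had 262 CPM against 17.3 to 35.6 CPM in the other Control libraries. These were 3 of 48 sets of 4 libraries examined, and chance alone marks about 1 in 20 (5%). The sums bear on Abcc8, whose counts were highest in MCT-vehicle 2 after scaling, and their part in its level was not tested.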

How the results depend on the processing

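Of the 5 tested members, the number called in MCT-vehicle against Control was 1, and 0 to 1 when 1 library was left out and 0 without MCT-vehicle 2 and Control 4 together. In MCT-Fer-1 against Control it was 0, and 2 with DESeq2, 1 with limma voom, 1 in a fit of only these groups, 2 with the replicate block (Aqp1 at an adjusted p of 0.0444 and Atp13a3 at 0.0404) and 0 to 1 when 1 library was left out. In MCT-Fer-1 against MCT-vehicle it was 0 under all 20 alternatives. Same-numbered libraries deviated together at r between -0.0633 and 0.102, and 4 of 12 libraries correlated best with their own number. These values show no pairing by number but cannot exclude it, and the block is given here only. Over all genes, MCT-vehicle against Control gave 2843 calls, 2021 to 2860 when 1 library was left out and 1675 without MCT-vehicle 2 and Control 4. MCT-Fer-1 against Control gave 1646, 977 to 1714 and 978 in the same way. MCT-Fer-1 against MCT-vehicle gave 0, and 244 with DESeq2, 1 in a fit of only these groups and 0 to 41 when 1 library was left out, with 41 without MCT-vehicle 3.

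Differences near 0 changed sign when 1 library was left out. In MCT-vehicle against Control these were Tbx4 (log2 fold change -0.05 to 0.20), Ggcx (-0.07 to 0.05, and 0.09 without MCT-vehicle 2 and Control 4) and Abcc8 (-0.0137 to 0.21 CPM). In MCT-Fer-1 against MCT-vehicle they were Tbx4 (-0.08 to 0.17, and -0.06 without MCT-vehicle 2 and Control 4), Eif2ak4 (-0.10 to 0) and Ggcx (-0.09 to 0.04), and in MCT-Fer-1 against Control Ggcx (-0.11 to 0.03, and 0.03 without MCT-vehicle 2 and Control 4). The cause was not tested. Other size factors moved the median of all genes by at most 0.01 and changed no call of a member. Depth limits Abcc8, at or below 3 counts in 6 of 12 libraries.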
